A study of Homo sapiens with 6 samples.

Results

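The genes described here encode the enzymes that build cholesterol and long-chain fatty acids, the proteins that switch those enzymes on and off, carriers of cholesterol inside the cell, and the liver X receptors (LXRs) with their targets. The rule matched their symbols to 36 of the 23355 gene entries in the read count table, and the list itself was drawn up with earlier results of these data known. They fall into 5 roles: sterol synthesis (14 genes), control of the sterol regulatory element binding proteins (SREBPs; 4 genes), sterol transport (4 genes), fatty acid synthesis (9 genes) and LXR receptors and targets (5 genes). All 36 had enough counts to be tested, with between 61 and 22423 counts per library. For these chosen members, the data show higher transcript levels of sterol synthesis enzymes after TAZ knockdown, more with siTAZ #2 than with siTAZ #1.

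Total RNA was sequenced from HFL-1, a human fetal lung fibroblast line, 48 h after transfection with small interfering RNA (siRNA). TAZ, encoded by WWTR1, is a transcriptional coactivator of the Hippo pathway, and the study asked which genes it regulates in lung fibroblasts. There were 3 groups of 2 libraries: a non-targeting control siRNA (siNTC) and a pair of different siRNAs against TAZ (siTAZ #1 and siTAZ #2). All were transfected with Lipofectamine RNAiMAX into otherwise unmodified cells. Per the study's methods, the line was grown on plastic dishes in Dulbecco's Modified Eagle's Medium with fetal bovine serum. The series describes the libraries of a group as biological replicates. No untransfected cells were analysed here, so what transfection itself does was shared by all groups and cannot be seen. HFL-1 is 1 cell line, so p-values measure the spread between transfections of that line. The knockdown was transient, and an effect on TAZ and an effect of a single siRNA sequence on other transcripts cannot be told apart within either comparison.

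Cells make cholesterol from acetyl-CoA through the mevalonate pathway, and most of its enzymes are transcribed under the control of SREBP transcription factors. When the endoplasmic reticulum is rich in sterol, INSIG proteins hold the escort protein SCAP and its bound SREBP there. When sterol falls, SCAP carries SREBP to the Golgi, where proteases free the part that enters the nucleus. SREBP-1 acts mainly on fatty acid synthesis, while LXRs sense oxidized sterols and turn on cholesterol export and the transcription of SREBF1.

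The targeted transcript was lower in all 4 knockdown libraries. WWTR1 stood at 132 and 131 CPM (read counts scaled to a common library size with trimmed mean of M-values, TMM, factors) with siNTC, 26.4 and 28.4 CPM with siTAZ #1, and 46.1 and 43.1 CPM with siTAZ #2. The fold changes were log2 -2.26 ± 0.10 (standard error, SE; false discovery rate, FDR 0.00062) and -1.56 ± 0.10 (FDR 0.00068) in edgeR's quasi-likelihood test, and WWTR1 was 1.63-fold lower with siTAZ #1 than with siTAZ #2 (FDR 0.0050). Library totals ran from 15648055 to 32078188 counts. The deepest, siTAZ #1 replicate 2, had almost no counts for 572 tested genes listed from RANGAP1 on chromosome 22 to the end of chromosome Y, a stretch that holds none of the 36 members. Fibroblast markers (10 of 10 detected) summed to 43001 to 43088 CPM with siNTC and to 31483 to 35114 CPM in the knockdown libraries. Single markers went both ways (FDR under 0.05). With siTAZ #1, 4 of the 10 fell and 2 rose (PDGFRA and PDGFRB), beside 9.78% and 10.8% of all genes tested. With siTAZ #2, 6 fell and 2 rose (THY1 and PDGFRB), beside 14.4% and 14.1%. Markers of leukocytes and of adipocytes summed to under 1 CPM in every library. Epithelial markers summed to 30.5 to 38.1 CPM in siNTC and siTAZ #1 and to 47.6 to 53.0 CPM in siTAZ #2, with 4 or 5 of 6 genes under 1 CPM. Most of that sum was KRT18, at 29.7 to 36.7 CPM in siNTC and siTAZ #1 and 44.6 and 50.4 CPM in siTAZ #2. Endothelial markers summed to 26.0 to 31.2 CPM in siTAZ #2 and 42.0 to 47.2 CPM elsewhere. Most of that sum was TEK, at 24.0 and 27.8 CPM in siTAZ #2 and 41.0 to 44.8 CPM elsewhere. VWF did not fall, with means of 0.727 CPM in siNTC and 2.11 CPM in siTAZ #2 (FDR 0.14). The part of these shifts in the results for lipid genes was not tested, and in bulk RNA fewer cells of a type and less RNA per cell cannot be told apart.

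Against siNTC, 14 of the 36 members rose and 1 fell with siTAZ #1, and 19 rose and 2 fell with siTAZ #2 (FDR under 0.05). Among all 14053 genes tested, 10.8% rose and 9.78% fell with siTAZ #1, and 14.1% rose and 14.4% fell with siTAZ #2. As a group the members had median log2 fold changes of 0.31 and 0.69 for siTAZ #1 and siTAZ #2, beside 0.016 and 0.015 for all genes tested. Both comparisons used the same siNTC libraries, so they were not independent. With both siRNAs, 10 members rose (5.49% of all genes) and none fell (3.74% of all genes): ACAT2, HMGCS1, IDI1, SQLE, CYP51A1, DHCR7, STARD4, ACLY, FASN and FADS2. The plot of log2 fold changes by role gives each member with its standard error.

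**Figure D1:**
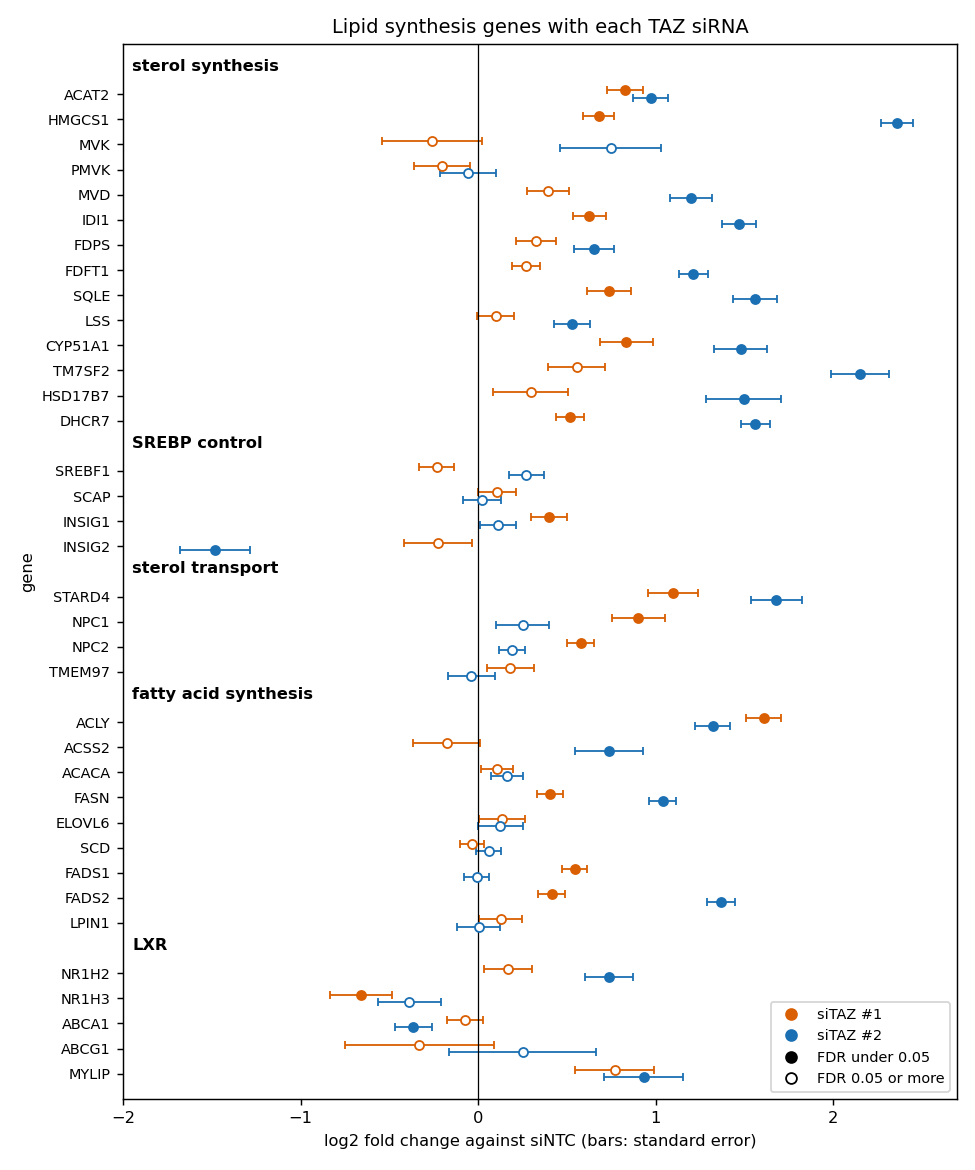
Log2 fold change (x axis) of each of the 36 genes (y axis, grouped by role) with siTAZ #1 (orange) and siTAZ #2 (blue) against siNTC; bars are standard errors of the fit, and filled points have an FDR under 0.05. In the sterol synthesis block 12 of 14 blue points are filled, all of them right of 0, against 6 filled orange points; INSIG2 has the lowest value, -1.48 with siTAZ #2.

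No sterol synthesis enzyme fell, and most of them rose with siTAZ #2. With siTAZ #2, 12 of 14 rose and none fell, beside 14.1% and 14.4% of all genes tested. The median log2 fold change was 1.34, with a range from -0.06 to 2.36. With siTAZ #1, 6 of 14 rose and none fell, beside 10.8% and 9.78% of all genes tested, with a median of 0.46. The CPM of the 14 genes summed to 936 and 944 with siNTC, 1224 and 1232 with siTAZ #1, and 2181 and 2170 with siTAZ #2. Both siTAZ #2 libraries lay above all 4 other libraries for 13 of the 14 enzymes, the exception being PMVK, and 21.1% of all genes tested had that order. Over all 36 members, both siTAZ #2 libraries were above the other 4 for 21 and below them for 2, INSIG2 and ABCA1, the latter order being found for 21.2% of all genes. In summed level of the sterol synthesis genes the 3 groups did not overlap.

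HMGCS1, which makes HMG-CoA, the precursor of mevalonate, had the largest rise of any member. Its gene lies on chromosome 5 (GRCh37, 43287572 to 43313614, minus strand). It stood at 59.0 and 61.2 CPM with siNTC, 90.7 and 102 CPM with siTAZ #1, and 315 and 303 CPM with siTAZ #2. The groups did not overlap, and the siTAZ #2 libraries were far above the rest. HMGCS1 rose 1.60-fold with siTAZ #1 (log2 0.68 ± 0.09, FDR 0.0057) and 5.13-fold with siTAZ #2 (log2 2.36 ± 0.09, FDR 0.00037).

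ACAT2, the cytosolic thiolase that condenses acetyl-CoA one step earlier, had close values with both siRNAs. It stood at 40.5 and 40.4 CPM with siNTC, 69.8 and 73.8 CPM with siTAZ #1, and 82.3 and 76.3 CPM with siTAZ #2. ACAT2 rose 1.77-fold with siTAZ #1 (log2 0.83 ± 0.10, FDR 0.0047) and 1.96-fold with siTAZ #2 (log2 0.97 ± 0.10, FDR 0.0020). Of its annotated exonic bases, 17.2% also belong to TCP1 on the opposite strand. Whether the counting used strand is not given in the sources used here, so reads from that overlap cannot be told apart.

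The mevalonate kinases differed from their neighbours in the pathway. MVK, which phosphorylates mevalonate, stood at 27.8 and 37.5 CPM with siNTC, 34.5 and 20.2 CPM with siTAZ #1, and 51.7 and 58.0 CPM with siTAZ #2. Its replicates spread widely, and neither comparison with siNTC passed the test (FDR 0.56 with siTAZ #1 and 0.10 with siTAZ #2). PMVK, which adds the second phosphate, was at 44.6 and 44.4 CPM with siNTC, 41.2 and 36.1 CPM with siTAZ #1, and 37.4 and 48.0 CPM with siTAZ #2. PMVK passed no test (FDR 0.41 and 0.82), and its siTAZ #2 libraries lay on either side of the siNTC pair.

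The enzymes that make and join isoprenoid units came next. MVD, the decarboxylase that yields isopentenyl diphosphate, stood at 28.4 and 30.1 CPM with siNTC, 36.4 and 40.4 CPM with siTAZ #1, and 65.7 and 68.5 CPM with siTAZ #2. IDI1, the isomerase that follows it, stood at 62.1 and 57.1 CPM with siNTC, 87.7 and 96.1 CPM with siTAZ #1, and 169 and 161 CPM with siTAZ #2. In both genes the order of the groups was siNTC, siTAZ #1, siTAZ #2 with no overlap. MVD rose 2.29-fold with siTAZ #2 (log2 1.20 ± 0.12, FDR 0.0019), and its value of log2 0.39 ± 0.12 with siTAZ #1 did not pass the test (FDR 0.068). IDI1 rose 1.54-fold with siTAZ #1 (FDR 0.0084) and 2.77-fold with siTAZ #2 (FDR 0.00068). FDPS, which makes farnesyl diphosphate, had 70.3 and 65.4 CPM with siNTC, 78.4 and 91.7 CPM with siTAZ #1, and 111 and 102 CPM with siTAZ #2. FDPS rose 1.57-fold with siTAZ #2 (log2 0.65 ± 0.11, FDR 0.010), while log2 0.33 ± 0.11 with siTAZ #1 missed the threshold (FDR 0.096).

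The genes of the steps unique to sterols rose strongly with siTAZ #2. FDFT1, squalene synthase, stood at 170.2 and 157 CPM with siNTC, 202 and 193 CPM with siTAZ #1, and 386 and 372 CPM with siTAZ #2. SQLE, the epoxidase that acts on squalene, stood at 69.6 and 68.5 CPM with siNTC, 102 and 128 CPM with siTAZ #1, and 212 and 195 CPM with siTAZ #2. The siTAZ #2 pair was the highest for both. FDFT1 rose 2.32-fold with siTAZ #2 (FDR 0.00071), with log2 0.27 ± 0.08 (FDR 0.065) for siTAZ #1. SQLE rose 1.67-fold with siTAZ #1 (FDR 0.012) and 2.95-fold with siTAZ #2 (FDR 0.0010). LSS, which closes the rings to give lanosterol, had the smallest of the 12 rises. It was at 217 and 230.0 CPM with siNTC, 258 and 220.4 CPM with siTAZ #1, and 312 and 333 CPM with siTAZ #2. LSS rose 1.44-fold with siTAZ #2 (log2 0.53 ± 0.10, FDR 0.014) and its siTAZ #1 libraries straddled a siNTC value (log2 0.10 ± 0.10, FDR 0.54).

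The genes that turn lanosterol into cholesterol included the second largest rise. CYP51A1, the lanosterol demethylase, stood at 39.7 and 41.1 CPM with siNTC, 62.5 and 81.7 CPM with siTAZ #1, and 118 and 108 CPM with siTAZ #2. It rose 1.78-fold (FDR 0.014) and 2.79-fold (FDR 0.0020), with the siTAZ #1 pair spread more widely than the others. In the annotation used here, another gene model on the same strand shares 68.2% of the exonic bases of CYP51A1. Whether the annotation behind the deposited counts held that model is not given in the sources used here. TM7SF2, a sterol reductase of the next step, was among the lowest of the enzymes with siNTC at 8.43 and 8.33 CPM. It stood at 12.4 and 12.2 CPM with siTAZ #1 and at 33.7 and 40.9 CPM with siTAZ #2. TM7SF2 rose 4.44-fold with siTAZ #2 (log2 2.15 ± 0.16, FDR 0.00092), and log2 0.55 ± 0.16 with siTAZ #1 did not pass (FDR 0.059). HSD17B7, which reduces the sterol ketone, had 6.78 and 8.96 CPM with siNTC, 10.5 and 8.83 CPM with siTAZ #1, and 21.5 and 23.0 CPM with siTAZ #2. Its siNTC and siTAZ #1 libraries overlapped (FDR 0.37), and it rose 2.82-fold with siTAZ #2 (FDR 0.0053). DHCR7, the reductase of the last step, had 91.4 and 94.1 CPM with siNTC, 137 and 128 CPM with siTAZ #1, and 266 and 281 CPM with siTAZ #2. DHCR7 rose 1.43-fold with siTAZ #1 (FDR 0.0096) and 2.95-fold with siTAZ #2 (FDR 0.00058), with no overlap between groups.

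**Figure D2:**
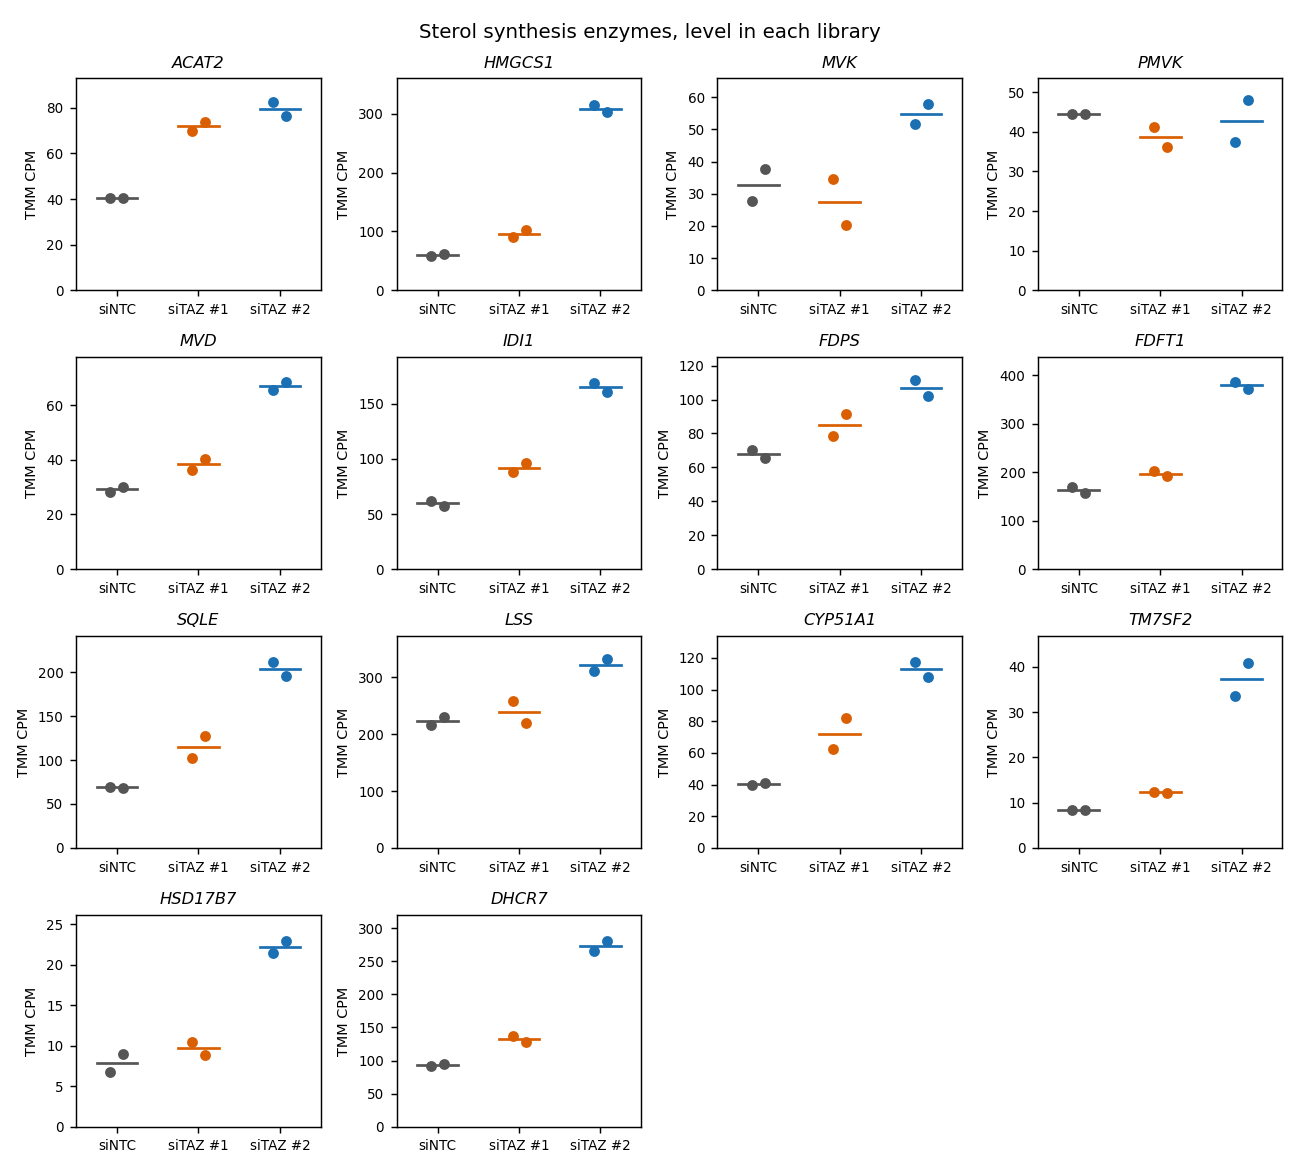
Level (y axis, TMM-scaled CPM, starting at 0) of the 14 sterol synthesis genes in each library, by group (x axis); points are single libraries and the line is the mean of 2. In every panel but that of PMVK both siTAZ #2 points lie above all other points, as for HMGCS1 at 315 and 303 CPM.

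Tests of siTAZ #1 rested on both control libraries. Without siNTC replicate 1, or without siNTC replicate 2, ACLY was the 1 member still called among those that had risen with siTAZ #1, in fits where the spread of the lone control library is taken from the remaining groups. The fold changes stayed close, as for HMGCS1 (log2 0.64 and 0.69 without each, FDR 0.070 and 0.062) and ACAT2 (log2 0.82 and 0.82, FDR 0.057 and 0.058). Under the same omissions 14 members still rose with siTAZ #2. The siTAZ #2 call was lost without either siNTC library or siTAZ #2 replicate 1 for FDPS (FDR up to 0.088), and without any 1 siNTC or siTAZ #2 library for LSS (FDR up to 0.12). The calls with siTAZ #2 for ACAT2, HMGCS1, MVD, IDI1, FDFT1, SQLE, CYP51A1, TM7SF2, HSD17B7 and DHCR7 held in each of the 17 alternative settings run. An offset for GC content lowered MVD from log2 1.20 to 0.72 with siTAZ #2, with the call kept (FDR 0.0048).

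Promoter sequence was available for 31 of the 36 genes (RefSeq, GRCh38.p14; 250 bases before to 50 after each annotated start). A gene was counted when any of its windows held the letters. Genes with several annotated starts, such as ACLY and IDI1, had more windows, and the shares were not adjusted for that. The letters CCAAT, bound by NF-Y, a factor known to work with SREBP at sterol genes, were found on either strand for 20 of the 31 genes (64.5%), for 9 of 11 sterol synthesis genes (81.8%) and for 39.7% of all 27305 genes with a promoter. The letters TCACNCCAC, a core of the sterol regulatory element, were found for none of the 31 and for 1.39% of all genes. GGAATG, the element of the TEAD factors through which TAZ binds DNA, was found for 7 of the 31 (22.6%) and for 16.7% of all genes. A match describes letters in a window and is not a shown binding site, and no match says only that those letters are not in this window. ACAT2, FDFT1, SQLE, FASN and ABCG1 were not matched. The 250 bases before the start are shown for the 4 members with a promoter and the largest rises with siTAZ #2. They are written 5′ to 3′ on the gene's strand with CCAAT or its reverse complement ATTGG in capitals. Only windows of these genes that hold CCAAT on either strand were printed, so a box in each was fixed by that choice.
HMGCS1 (chr5:43313413-43313662, minus strand): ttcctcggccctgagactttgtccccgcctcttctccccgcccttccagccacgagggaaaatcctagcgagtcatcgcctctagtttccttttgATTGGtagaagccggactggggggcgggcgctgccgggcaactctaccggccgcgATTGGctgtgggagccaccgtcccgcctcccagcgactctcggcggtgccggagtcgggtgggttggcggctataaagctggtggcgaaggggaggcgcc
TM7SF2 (chr11:65111622-65111871, plus strand): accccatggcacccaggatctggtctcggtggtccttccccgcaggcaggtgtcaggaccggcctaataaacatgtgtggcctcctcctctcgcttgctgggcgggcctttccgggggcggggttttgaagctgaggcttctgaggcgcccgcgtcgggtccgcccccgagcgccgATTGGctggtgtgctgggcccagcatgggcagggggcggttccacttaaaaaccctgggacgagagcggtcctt
DHCR7 (chr11:71448394-71448643, minus strand): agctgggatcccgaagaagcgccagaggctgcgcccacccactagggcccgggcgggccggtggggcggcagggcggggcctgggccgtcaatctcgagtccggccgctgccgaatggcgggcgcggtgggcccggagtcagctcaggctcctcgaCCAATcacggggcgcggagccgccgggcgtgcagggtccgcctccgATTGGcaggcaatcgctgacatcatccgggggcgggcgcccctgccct
STARD4 (chr5:111512536-111512785, minus strand): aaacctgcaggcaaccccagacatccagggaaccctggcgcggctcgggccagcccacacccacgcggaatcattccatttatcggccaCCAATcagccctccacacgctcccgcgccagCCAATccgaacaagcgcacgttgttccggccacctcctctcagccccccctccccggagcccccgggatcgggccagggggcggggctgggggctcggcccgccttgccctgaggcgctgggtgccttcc
HMGCS1, DHCR7 and STARD4 each hold a pair of the boxes, their first bases 155 and 100, 94 and 48, and 161 and 130 bases before the start. TM7SF2 holds 1, at 74 bases before the start. STARD4 also holds GGAATG on the reverse strand, 179 bases before the start.

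The 4 genes of SREBP control did not share a direction. INSIG1, itself a well-known SREBP target, stood at 156 and 146 CPM with siNTC, 199 and 199 CPM with siTAZ #1, and 176 and 150.0 CPM with siTAZ #2. INSIG1 rose 1.32-fold with siTAZ #1 (log2 0.40 ± 0.10, FDR 0.042), and log2 0.11 ± 0.10 with siTAZ #2 did not pass (FDR 0.45). The siTAZ #1 call was also lost with no filter on low counts and with the replicate number as a block.

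INSIG2, the second isoform, fell with siTAZ #2. It lies on chromosome 2 (GRCh37, 118846028 to 118868573, plus strand). It stood at 17.5 and 21.0 CPM with siNTC, 14.8 and 18.1 CPM with siTAZ #1, and 6.59 and 7.19 CPM with siTAZ #2. INSIG2 was 2.79-fold lower with siTAZ #2 (log2 -1.48 ± 0.20, FDR 0.0043), a call that held in every alternative run, and the siNTC and siTAZ #1 libraries overlapped (log2 -0.23 ± 0.19, FDR 0.45). With siTAZ #2 the INSIG pair thus held unequal changes, one passing the test and one not. Per kilobase of transcript the level of INSIG1 was above that of INSIG2 in all groups, 51.9 against 5.40 CPM per kb with siNTC, 68.4 against 4.61 with siTAZ #1 and 56.1 against 1.93 with siTAZ #2.

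SREBF1, which encodes SREBP-1, stood at 72.0 and 80.1 CPM with siNTC, 62.4 and 67.0 CPM with siTAZ #1, and 92.0 and 91.4 CPM with siTAZ #2. Neither comparison with siNTC passed (log2 -0.23 ± 0.10, FDR 0.15, and 0.27 ± 0.10, FDR 0.092), although the 3 groups did not overlap. SREBF1 shares 6.75% of its exonic bases with RAI1 on the opposite strand. SCAP, the escort, lay between 83.6 and 99.9 CPM in all 6 libraries and passed no test (FDR 0.53 and 0.91).

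Among sterol transport genes, 3 of 4 rose with siTAZ #1 and 1 of 4 with siTAZ #2, beside 10.8% and 14.1% of all genes tested. STARD4, a soluble carrier that moves cholesterol between membranes, stood at 20.2 and 22.6 CPM with siNTC, 44.8 and 46.8 CPM with siTAZ #1, and 74.7 and 62.4 CPM with siTAZ #2. STARD4 rose 2.14-fold with siTAZ #1 (log2 1.10 ± 0.14, FDR 0.0055) and 3.20-fold with siTAZ #2 (log2 1.68 ± 0.14, FDR 0.0012), with no overlap between groups.

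The lysosomal exporters NPC1 and NPC2 had their highest levels with siTAZ #1. NPC1, the membrane protein, stood at 67.4 and 69.0 CPM with siNTC, 146 and 109 CPM with siTAZ #1, and 77.3 and 84.9 CPM with siTAZ #2. NPC2, the soluble partner that hands cholesterol to it, stood at 105 and 99.8 CPM with siNTC, 151 and 155 CPM with siTAZ #1, and 116 and 118 CPM with siTAZ #2. With siTAZ #1, NPC1 rose 1.87-fold (log2 0.90 ± 0.15, FDR 0.012) and NPC2 1.49-fold (log2 0.58 ± 0.08, FDR 0.0057). With siTAZ #2, log2 0.25 ± 0.15 for NPC1 (FDR 0.26) and 0.19 ± 0.07 for NPC2 (FDR 0.11) did not pass. NPC1 shares 6.38% of its exonic bases with RMC1 on the opposite strand. TMEM97, a membrane protein that binds NPC1, lay between 20.1 and 24.5 CPM in all libraries and passed no test (FDR 0.38 and 0.86).

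Of the 9 fatty acid genes, 4 rose with each siRNA and none fell, with medians of log2 0.13 and 0.16. The shares of all genes tested were 10.8% higher and 9.78% lower with siTAZ #1, and 14.1% and 14.4% with siTAZ #2. ACLY, FASN and FADS2 rose with both siRNAs, as did 5.49% of all genes tested. The CPM of the 9 genes summed to 1881 and 1908 with siNTC, 2581 and 2465 with siTAZ #1, and 3025 and 3042 with siTAZ #2.

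ACLY, which cleaves citrate to supply cytosolic acetyl-CoA to both pathways, had the largest rise with siTAZ #1. It lies on chromosome 17 (GRCh37, 40023170 to 40086795, minus strand). It stood at 161 and 166 CPM with siNTC, 538 and 459.5 CPM with siTAZ #1, and 411 and 406 CPM with siTAZ #2. All 4 knockdown libraries were far above the control pair. ACLY rose 3.05-fold with siTAZ #1 (log2 1.61 ± 0.10, FDR 0.00084) and 2.50-fold with siTAZ #2 (log2 1.32 ± 0.10, FDR 0.00088). ACSS2, which makes acetyl-CoA from acetate instead, stood at 50.5 and 45.1 CPM with siNTC, 49.7 and 34.8 CPM with siTAZ #1, and 75.0 and 84.2 CPM with siTAZ #2. It rose 1.67-fold with siTAZ #2 (FDR 0.036), and its siNTC and siTAZ #1 libraries overlapped (FDR 0.55). The ACSS2 call with siTAZ #2 was lost in 5 of 17 alternatives, namely the replicate block and each siNTC or siTAZ #2 library left out (FDR up to 0.20).

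FASN and ACACA, which act in sequence, differed in their values. FASN, fatty acid synthase, stood at 151 and 156 CPM with siNTC, 209 and 198 CPM with siTAZ #1, and 312 and 321 CPM with siTAZ #2. FASN rose 1.32-fold with siTAZ #1 (FDR 0.016) and 2.06-fold with siTAZ #2 (log2 1.04 ± 0.08, FDR 0.00082), with no overlap between groups. With an offset for GC content its siTAZ #2 value was log2 0.57 (FDR 0.0029). ACACA, the acetyl-CoA carboxylase that precedes it, ranged from 105 to 122 CPM and passed no test (FDR 0.47 and 0.24).

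The desaturases also differed among themselves. SCD, which makes monounsaturated acids and was the highest member in CPM with siNTC, stood at 608 and 619.5 CPM there, 594 and 604 CPM with siTAZ #1, and 644 and 636 CPM with siTAZ #2. SCD passed no test (log2 -0.03 ± 0.07, FDR 0.76, and 0.06 ± 0.07, FDR 0.56), and all 6 of its libraries lay between 594 and 644 CPM. FADS2, the first desaturase of polyunsaturated acids, stood at 411 and 421 CPM with siNTC, 567 and 540.3 CPM with siTAZ #1, and 1048 and 1096 CPM with siTAZ #2. FADS2 rose 1.33-fold with siTAZ #1 (FDR 0.016) and 2.58-fold with siTAZ #2 (log2 1.37 ± 0.08, FDR 0.00063), again with no overlap.

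FADS1, which acts later in the same chain, showed another order. It stood at 225 and 221 CPM with siNTC, 325 and 324 CPM with siTAZ #1, and 219 and 224 CPM with siTAZ #2. FADS1 rose 1.46-fold with siTAZ #1 (log2 0.54 ± 0.07, FDR 0.0055), and its siTAZ #2 libraries lay at the siNTC level (log2 -0.01 ± 0.07, FDR 0.94). FADS1 and FADS2 are neighbours on chromosome 11 (GRCh37, 61567099 to 61596790 on the minus strand and 61560452 to 61634826 on the plus strand). Annotated exons of the pair overlap over 490 bases on opposite strands, 4.79% of FADS1 and 4.64% of FADS2 exonic bases. ELOVL6, which lengthens palmitate, ranged from 66.1 to 83.1 CPM, and LPIN1, a phosphatidate phosphatase of triglyceride synthesis, from 95.4 to 121 CPM. Neither passed a test (FDR 0.50 and 0.51 for ELOVL6, 0.50 and 0.99 for LPIN1), and in each gene the siTAZ #2 libraries overlapped both other groups.

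**Figure D3:**
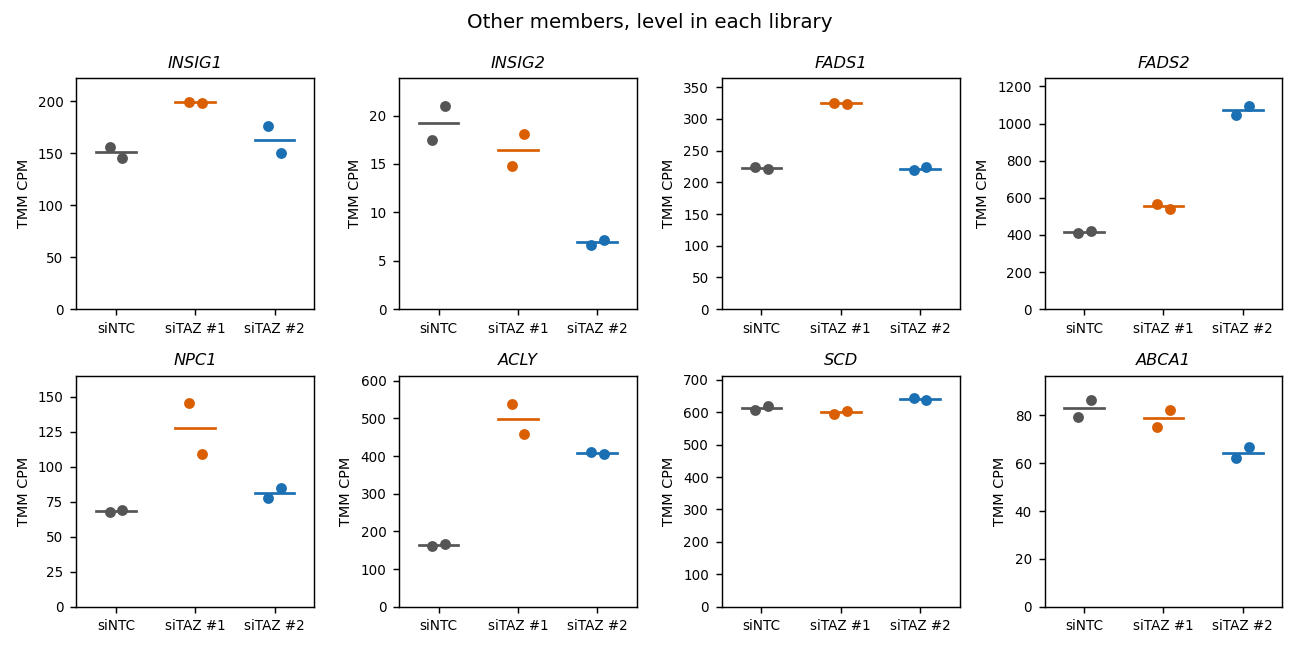
Level (y axis, TMM-scaled CPM, starting at 0) of INSIG1, INSIG2, FADS1, FADS2, NPC1, ACLY, SCD and ABCA1 in each library, by group (x axis); points are single libraries and the line is the mean of 2. INSIG2 is lowest with siTAZ #2 (6.59 and 7.19 CPM), FADS1 is highest with siTAZ #1 (325 and 324 CPM) and FADS2 with siTAZ #2 (1048 and 1096 CPM).

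The 5 LXR genes did not share a direction, with 1 lower with siTAZ #1, and 2 higher and 1 lower with siTAZ #2. The shares of all genes tested were 9.78% lower with siTAZ #1, and 14.1% higher and 14.4% lower with siTAZ #2. NR1H2, which encodes LXRβ, stood at 44.4 and 42.5 CPM with siNTC, 44.6 and 53.0 CPM with siTAZ #1, and 77.4 and 67.5 CPM with siTAZ #2. It rose 1.67-fold with siTAZ #2 (log2 0.74 ± 0.14, FDR 0.012), a call lost with an offset for GC content (log2 0.46, FDR 0.067) and without either siNTC library or siTAZ #2 replicate 1 (FDR up to 0.096). NAPSA, on the opposite strand, shares 22.1% of its exonic bases. NR1H3, which encodes LXRα, stood at 18.4 and 18.0 CPM with siNTC, 12.6 and 10.4 CPM with siTAZ #1, and 13.2 and 14.7 CPM with siTAZ #2. All 4 knockdown libraries were below both controls. NR1H3 fell with siTAZ #1 at the edge of the threshold (log2 -0.66 ± 0.18, FDR 0.049), a call lost in 10 of 17 alternatives, and log2 -0.39 ± 0.18 with siTAZ #2 did not pass (FDR 0.16).

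The LXR targets did not move together. ABCA1, which exports cholesterol to apolipoproteins, stood at 79.4 and 86.5 CPM with siNTC, 75.2 and 82.2 CPM with siTAZ #1, and 62.2 and 66.6 CPM with siTAZ #2. It fell with siTAZ #2 by 0.36 ± 0.10 on the log2 scale (FDR 0.045), and the call was lost in 9 of 17 alternatives. ABCG1, an exporter to high-density lipoprotein, was the lowest member per kilobase and stood at 4.75 and 3.85 CPM with siNTC, 4.84 and 2.12 CPM with siTAZ #1, and 5.28 and 4.95 CPM with siTAZ #2. It passed no test (FDR 0.62 and 0.70). Its siTAZ #1 replicates lay far apart and its standard errors were log2 0.42 and 0.41, so only large changes were detectable. MYLIP, a ubiquitin ligase that marks lipoprotein receptors for destruction, stood at 7.80 and 10.3 CPM with siNTC, 15.1 and 15.8 CPM with siTAZ #1, and 15.2 and 19.4 CPM with siTAZ #2. It was higher in all 4 knockdown libraries and rose 1.91-fold with siTAZ #2 (log2 0.93 ± 0.22, FDR 0.028), while log2 0.77 ± 0.22 with siTAZ #1 fell short (FDR 0.060). The MYLIP call was lost without any 1 siNTC or siTAZ #2 library (FDR up to 0.15).

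The siRNAs were then compared directly, since a call with one and not the other does not show a difference. Of the 36 members, 17 were higher with siTAZ #2 than with siTAZ #1 and 4 were lower, beside 13.4% and 15.2% of all genes tested. The median difference (siTAZ #2 minus siTAZ #1) was log2 0.38 for the members and 0.009 for all genes. Sterol synthesis held 11 of the 17, all 14 of its genes had a difference above 0, and its median was log2 0.83. The other 6 were FADS2, ACSS2, FASN, STARD4, NR1H2 and SREBF1. The WWTR1 transcript itself was less reduced with siTAZ #2 in these libraries, while 11 of the 14 sterol enzymes were higher with it. TAZ protein was not measured in these libraries, and a link between the orders was not tested.

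HMGCS1 differed most, at 3.21-fold higher with siTAZ #2 (log2 1.68 ± 0.09, FDR 0.00053), followed by TM7SF2 at 3.03-fold (log2 1.60 ± 0.16, FDR 0.0019). HSD17B7 (2.30-fold, FDR 0.010), DHCR7 (2.06-fold, FDR 0.0010), FADS2 (1.94-fold, FDR 0.0011) and FDFT1 (1.92-fold, FDR 0.0013) came after. MVK was 2.01-fold higher with siTAZ #2 (log2 1.01 ± 0.29, FDR 0.046), a call lost in 7 of 17 alternatives (FDR up to 0.19), namely the fit of 4 libraries, the replicate block, the GC offset and each siNTC or siTAZ #2 library left out. Without siTAZ #1 replicate 2 the MVK difference, taken as siTAZ #1 minus siTAZ #2, was log2 -0.66. ACAT2 (log2 0.14 ± 0.10, FDR 0.33), FDPS (0.33 ± 0.11, FDR 0.081) and PMVK (0.14 ± 0.16, FDR 0.55) were the sterol enzymes with no difference past the threshold.

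The 4 members lower with siTAZ #2 were INSIG2 (log2 -1.25 ± 0.20, FDR 0.0070), NPC1 (-0.65 ± 0.15, FDR 0.024), FADS1 (-0.55 ± 0.07, FDR 0.0036) and NPC2 (-0.39 ± 0.07, FDR 0.014). The NPC1 call was lost in 6 of 17 alternatives, namely the fit of 4 libraries, the replicate block and each siNTC or siTAZ #2 library left out (FDR up to 0.12), and without siTAZ #1 replicate 1 the difference was log2 0.43 for siTAZ #1 minus siTAZ #2. ACLY had the higher mean with siTAZ #1, but that difference did not pass (log2 -0.29 ± 0.10 for siTAZ #2 minus siTAZ #1, FDR 0.072). SREBF1 was 1.42-fold higher with siTAZ #2 (FDR 0.014), and an offset for GC content ended that call (log2 -0.21 for siTAZ #1 minus siTAZ #2, FDR 0.14). The same offset ended the calls for LSS, MVK and NR1H2 and lowered that of FASN from log2 -0.64 to -0.30 and that of MVD from -0.81 to -0.46, on the same scale. DHCR7, FADS1, FADS2, FASN, FDFT1, HMGCS1, IDI1, MVD, SQLE and TM7SF2 kept their call in each of the 17 alternatives. The calls for LSS and NR1H2 were lost in 7, STARD4 in 6, CYP51A1 in 5 and ACSS2 in 4 of them. Those for SREBF1 were lost in 3, HSD17B7 and NPC2 in 2 and INSIG2 in 1. Without siTAZ #2 replicate 1, or without its replicate 2, 9 of the 17 higher members were called, and 1 or 2 of the 4 lower ones.

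**Figure D4:**
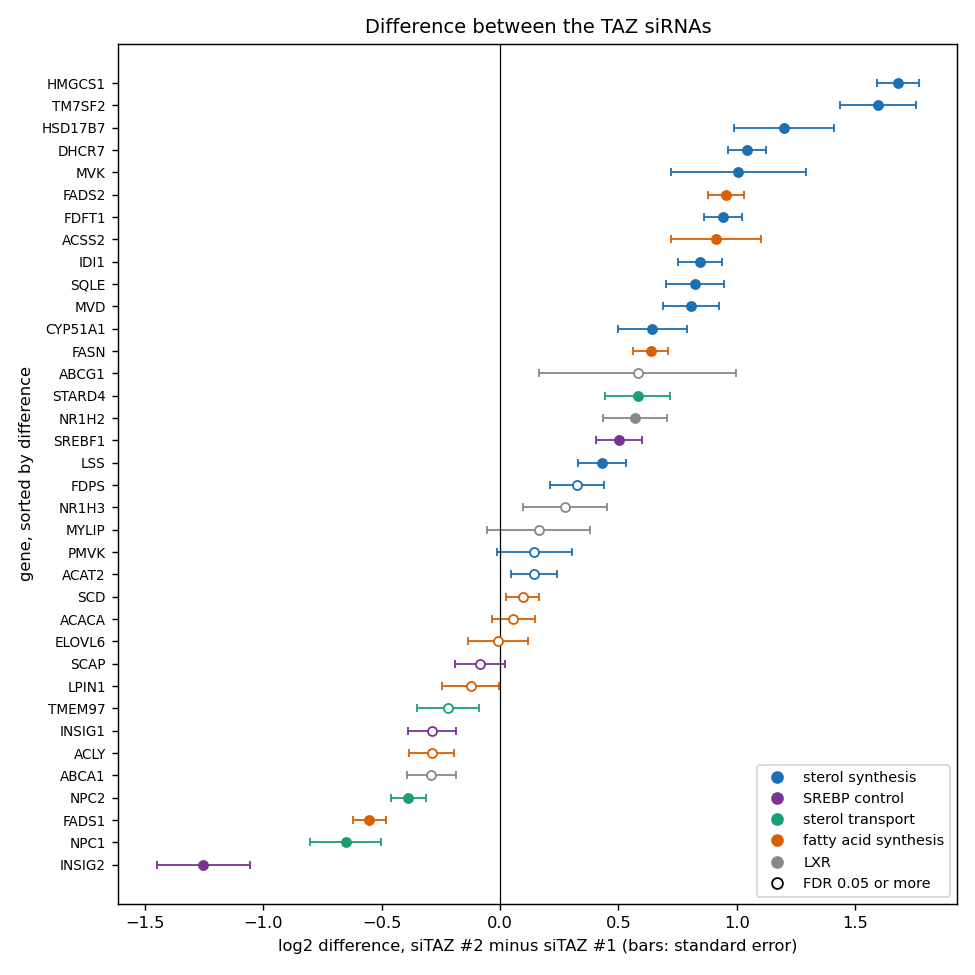
Difference in log2 expression between the siRNAs (x axis, siTAZ #2 minus siTAZ #1) for the 36 genes, sorted by that difference (y axis) and coloured by role; bars are standard errors and filled points have an FDR under 0.05. Sterol synthesis genes (blue) all lie right of 0, up to 1.68 for HMGCS1, and INSIG2 stands alone at the lower end at -1.25.

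Per kilobase of transcript, the order of levels in siNTC was led by FADS2 (134 CPM per kb), NPC2 (125), SCD (117) and FDFT1 (80.5), and it ended with HSD17B7 (5.15), STARD4 (4.62), MYLIP (2.95) and ABCG1 (1.45). With siTAZ #2, FADS2 reached 347 CPM per kb and FDFT1 186, while SCD was at 122. HMGCS1 went from 11.2 CPM per kb with siNTC to 57.7 with siTAZ #2. One canonical transcript length per gene was used, so neighbours in that order, such as SCD and NPC2, cannot be ranked firmly.

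Other genes of the same pathways were taken from lists that were likewise drawn up with earlier results known, so their counts are descriptions. Of 9 further sterol synthesis genes, all tested, 1 rose with siTAZ #1 and 5 with siTAZ #2, and none fell, where 10.8% and 14.1% of all genes rose. LBR, which has sterol reductase activity like TM7SF2 and also anchors chromatin to the nuclear envelope, rose with both: 32.8 and 41.0 CPM with siNTC, 124 and 136 with siTAZ #1, and 106 and 109 with siTAZ #2 (log2 1.82 ± 0.13 and 1.54 ± 0.13, both FDR 0.0012). MSMO1, a sterol methyl oxidase named here after its values were seen, stood at 49.5 and 59.7 CPM with siNTC, 43.7 and 59.3 CPM with siTAZ #1, and 305 and 244 CPM with siTAZ #2 (log2 -0.08 ± 0.19, FDR 0.79, and 2.33 ± 0.20, FDR 0.0012). Of the same list, NSDHL and EBP lie on chromosome X in the stretch nearly missing from siTAZ #1 replicate 2, and had 0.184 and 0.215 CPM there. The fit shares the spread over groups, and with siTAZ #2 their SEs were log2 1.65 and 1.61. NSDHL stood at 51.7 and 45.6 CPM with siNTC and 83.2 and 101 with siTAZ #2. EBP stood at 38.9 and 37.5 CPM and at 48.4 and 51.8. Neither passed with siTAZ #2 (FDR 0.72 and 0.89), and changes of that size were not detectable there.

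Of 15 further fatty acid genes, 14 were tested, of which 2 fell with siTAZ #1, and 4 rose and 1 fell with siTAZ #2, beside 9.78% of all genes that fell with siTAZ #1 and 14.1% and 14.4% that rose and fell with siTAZ #2. ACSL4 and MID1IP1, among those that did not pass, also lie in the stretch nearly missing from siTAZ #1 replicate 2, with 96 and 17 counts there against 2873 and 402 in replicate 1. Their SEs with siTAZ #2 were log2 1.39 and 1.28, so only very large changes were detectable. ACSL4 stood at 177 and 165 CPM with siNTC and 314 and 308 with siTAZ #2 (FDR 0.69). MID1IP1 stood at 46.8 and 50.7 CPM and at 40.8 and 43.7 (FDR 0.93). ME1, the malic enzyme that supplies NADPH, moved in opposite directions: 72.7 and 83.4 CPM with siNTC, 26.8 and 32.4 with siTAZ #1 (log2 -1.40 ± 0.13, FDR 0.0024), and 122 and 118 with siTAZ #2 (log2 0.62 ± 0.13, FDR 0.018). The other one that fell with siTAZ #1, PTPLAD1, named after its values were seen, had 171 and 180 CPM with siNTC, 36.6 and 35.6 with siTAZ #1 and 184 and 174 with siTAZ #2 (log2 -2.28 ± 0.08, FDR 0.00043, and 0.03 ± 0.08, FDR 0.83). Of 9 further LXR target and sterol transport genes, 2 rose and 2 fell with siTAZ #1, and 1 rose and 3 fell with siTAZ #2. Among all genes tested, 10.8% rose and 9.78% fell with siTAZ #1, and 14.1% rose and 14.4% fell with siTAZ #2. OSBP, an oxysterol binding protein, stood at 138 and 124 CPM with siNTC, 74.4 and 77.0 CPM with siTAZ #1, and 92.2 and 101 CPM with siTAZ #2, and it fell with both (log2 -0.79 ± 0.10, FDR 0.0048, and -0.44 ± 0.10, FDR 0.020). SOAT1, which esterifies cholesterol for storage, stood at 87.5 and 93.1 CPM with siNTC, 119 and 135 CPM with siTAZ #1, and 72.4 and 60.6 CPM with siTAZ #2. SOAT1 rose with siTAZ #1 (log2 0.49 ± 0.12, FDR 0.040) and fell with siTAZ #2 (log2 -0.44 ± 0.12, FDR 0.044).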

How the data were processed

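Per the labels and the study's methods, the authors extracted total RNA from HFL-1 cells, sequenced it on an Ion Proton, aligned reads to hg19 with TMAP and counted reads per gene with HTSeq 0.6.1. The deposited table holds raw read counts for 23368 rows. The strand setting and counting mode are not given in the sources used here. Rows whose symbol had become a date (13 rows, 0.0458 to 0.0506% of each library) were left out. All other steps were computed from the counts: edgeR 4.0.16 in R 4.3.3 (TMM scaling, filterByExpr by group, quasi-likelihood test, 1 fit of all 6 libraries, Benjamini-Hochberg over 14053 genes, FDR 0.05). The script was tested on simulated data. SEs are those of the fitted log2 fold change, and per-kilobase levels used canonical GENCODE transcripts on GRCh37. Library totals set the precision of each value and cover counting error only.

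The members, their roles and the further lists were chosen with earlier results of these data known, so their counts are not independent support. Values per library are given for every member past the threshold in either comparison, for pairs of related genes and for the highest and lowest member, and for further pathway genes past the threshold in both comparisons. Replicate numbers did not pair the libraries: deviations of same-numbered libraries correlated at -0.014, 0.021 and -0.27 over 11534 genes. Alternatives were DESeq2 1.42.0, RLE scaling, library totals, no filter, a mean count of at least 50, fits of 4 libraries, the table without the stretch missing from siTAZ #1 replicate 2, an offset for GC content (known for 94.8% of tested genes), FDR 0.1, a replicate block and each library left out. A replicate block with siTAZ #1 numbers exchanged was added after seeing the data. CCAAT, TCACNCCAC and GGAATG were searched on both strands of the promoters.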

Additional observations from a re-analysis of the deposited data

How the results depend on the processing

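Of 108 named fold changes (36 genes in 3 comparisons) under 17 alternatives, 1836 values in all, 1633 kept direction and side of the threshold, 119 lost the call, 47 gained one and 37 changed sign. The members called lower with siTAZ #1 (1 as reported) numbered 0 with library totals, with no filter, in a fit of 4 libraries and with both blocks. Those called lower with siTAZ #2 (2 as reported) numbered 1 with library totals, with no filter and with both blocks. At FDR 0.1, 7 members rather than 4 were higher with siTAZ #1 than with siTAZ #2. With single libraries left out, siTAZ #1 against siNTC gave 0 to 3 lower and 1 to 17 higher members, siTAZ #2 against siNTC gave 1 to 2 lower and 14 to 20 higher, and siTAZ #1 against siTAZ #2 gave 9 to 18 lower and 1 to 5 higher. The 1 higher member left without either siNTC library came from fits in which the whole table had 283 and 279 higher genes rather than 1515. The replicate block, in which same-numbered libraries share only a number, called 11 higher and 0 lower members with siTAZ #1. It called 18 and 1 with siTAZ #2, and 3 and 13 in siTAZ #1 against siTAZ #2. Over all 14053 genes it called 868 higher and 823 lower, 1329 and 1420, and 1542 and 1327. The crossed pairing called 14 and 0, 20 and 1, and 4 and 18 members. Over all genes its counts were 1368 and 1244, 1857 and 1893, and 2061 and 1782. The whole table had a common dispersion of 0.0807 with the genes nearly missing from siTAZ #1 replicate 2 and 0.0166 without them. In their absence 17 members rose with siTAZ #1 and 20 with siTAZ #2. Calls rose over the whole table as well, to 2109 and 2620 higher genes of 13461, from 1515 and 1983 of 14053.

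No result that passed the test changed sign in any alternative. Other members crossed 0 with 1 library left out, over these ranges of log2 fold change. With siTAZ #1 they were MVK (-0.70 to 0.080), LSS (-0.021 to 0.21), SCAP (-0.0037 to 0.21), ACSS2 (-0.46 to 0.058) and ABCG1 (-1.02 to 0.17). With siTAZ #2 they were PMVK (-0.27 to 0.11), SCAP (-0.047 to 0.058), INSIG1 (-0.0099 to 0.20), TMEM97 (-0.12 to 0.0036), ELOVL6 (-0.040 to 0.25), FADS1 (-0.049 to 0.0045) and LPIN1 (-0.11 to 0.084). In siTAZ #1 against siTAZ #2 they were PMVK (-0.31 to 0.055), SCAP (-0.019 to 0.19), ACACA (-0.13 to 0.020), ELOVL6 (-0.13 to 0.17) and MYLIP (-0.33 to 0.035). The GC offset gave SREBF1 -0.097, SCAP -0.28, TMEM97 0.037 and FADS1 0.072 with siTAZ #2, and PMVK 0.052 and ELOVL6 -0.097 between the siRNAs. Library totals gave TMEM97 0.0053 and FADS1 0.036 with siTAZ #2 and ELOVL6 -0.0042 between the siRNAs. For siTAZ #2, SCAP was -0.00096 and LPIN1 -0.019 with no filter, FADS1 was 0.0042 among genes averaging at least 50 counts, and LPIN1 was -0.0059 with DESeq2, -0.0066 with RLE scaling and -0.0024 with the crossed block. Without the nearly missing genes, ELOVL6 was -0.011 between the siRNAs. The causes were not tested.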
